A study of Homo sapiens with 5 samples.

Results

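Binding of the transcription factor TEAD4 was examined at 8 genes for amino acid transporters, SLC38A1, SLC38A2, SLC38A4, SLC1A5, SLC7A1, SLC7A5, SLC7A11 and SLC3A2, of 20007 protein-coding genes. A peak was assigned to a gene when its summit lay in the gene body or within 150 kb of any transcription start site (TSS) of the gene in GENCODE release 44 (hg38). This gave 50 peaks of 21113 in the list. The genes were chosen with earlier results on these peaks known, so the counts and signal values are given as a description and without tests.

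The peaks came from TEAD4 ChIP-seq of LX-2 cells, a human hepatic stellate cell line used as a model of myofibroblastic stellate cells, which had received only the solvent DMSO. Chromatin of 3 replicates and 2 input samples was sequenced, one input being shared by replicates 1 and 2. The peak list used here combines replicates 1 and 3, since replicate 2 was left out as not concordant with them, and has no value per replicate. The spread between replicates and the depth are therefore unknown, and every value stands for 1 cell line in 1 condition. Each peak carries a signal value from the peak caller, which ranks peaks within the list (lowest 6.57, median 68.1, highest 1074) and has no stated normalisation.

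TEAD proteins bind DNA at a short sequence that reads ACATTCC and recruit the coactivators YAP1 and TAZ, which act downstream of the Hippo pathway. Amino acid transporters of the SLC families supply glutamine, arginine, leucine and cystine for protein and glutathione synthesis and for mTORC1 signalling. Activated stellate cells make large amounts of collagen, which is rich in glycine and proline.

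The sequences around the summits of 10 peaks are shown because they hold, or at SLC38A1 lack, the motifs counted later in the text. They are the reference sequence of hg38, with each match to the TEAD motif ACATTCC, to its core CATTCC (contained in the full motif) or to the AP-1 motif TGACTCA or TGAGTCA in capitals. On the plus strand a motif of the minus strand reads GGAATGT or GGAATG. The first sequence spans 201 bp, the strongest SLC7A5 peak 121 bp and each of the others 81 bp, centred on the summit.
SLC38A2 strongest, chr12:46494476-46494676, plus strand: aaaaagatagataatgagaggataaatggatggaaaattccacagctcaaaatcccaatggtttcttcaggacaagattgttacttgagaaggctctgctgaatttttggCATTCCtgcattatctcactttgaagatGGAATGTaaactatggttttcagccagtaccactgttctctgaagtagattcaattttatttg
SLC38A2 next strongest, chr12:46473776-46473856, plus strand: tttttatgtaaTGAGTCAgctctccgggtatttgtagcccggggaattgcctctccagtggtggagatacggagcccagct
SLC38A2 neighbour of the strongest, chr12:46492753-46492833, plus strand: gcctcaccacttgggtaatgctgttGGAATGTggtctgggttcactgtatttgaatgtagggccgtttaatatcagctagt
SLC38A4 strongest, chr12:46964624-46964704, plus strand: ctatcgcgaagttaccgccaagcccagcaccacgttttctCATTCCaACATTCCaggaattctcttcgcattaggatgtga
SLC7A5 strongest, chr16:87870770-87870890, plus strand: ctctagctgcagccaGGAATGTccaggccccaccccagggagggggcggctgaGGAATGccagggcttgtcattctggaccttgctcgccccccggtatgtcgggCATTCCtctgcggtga
SLC7A5 downstream, chr16:87785017-87785097, plus strand: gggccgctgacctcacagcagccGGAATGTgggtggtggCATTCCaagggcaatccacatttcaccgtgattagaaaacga
SLC7A1 strongest, chr13:29676676-29676756, plus strand: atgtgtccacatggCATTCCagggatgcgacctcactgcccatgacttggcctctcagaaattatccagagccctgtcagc
SLC7A11 intronic, chr4:138235688-138235768, plus strand: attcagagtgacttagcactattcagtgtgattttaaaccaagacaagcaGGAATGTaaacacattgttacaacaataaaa
SLC3A2 strongest, chr11:62890120-62890200, plus strand: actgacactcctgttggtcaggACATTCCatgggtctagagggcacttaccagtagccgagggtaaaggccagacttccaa
SLC38A1 strongest, chr12:46220043-46220123, plus strand: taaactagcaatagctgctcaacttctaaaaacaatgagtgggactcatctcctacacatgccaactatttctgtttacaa

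The SLC38A2 gene (chr12:46358188-46372773, minus strand) encodes SNAT2, a sodium-coupled carrier of neutral amino acids such as glutamine and alanine. It had 16 peaks in its window, and 0.855% of protein-coding genes had as many. None of them lay in the gene body or within 2.5 kb of a TSS, and 6 lay within 50 kb. Of the 16 peaks, 12 were upstream of the canonical TSS and 4 downstream of it. Their signal values ran from 19.8 to 859.9 with a median of 102.0.

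The strongest peak of the window lay at chr12:46494293-46494878, between SLC38A2 and SLC38A4. Its signal value of 859.9 was the third highest in the list, after 1074 on chromosome 5 and 866 on chromosome 18. It was 12.6 times the list median and 2.05 times the next strongest peak of the SLC38A2 window. Only 4 protein-coding genes, SLC38A2 among them, had a peak as strong in their window.

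The summit of this peak (position 46494576) lay 122 kb upstream of the canonical TSS of SLC38A2. The 3′ end of SLC38A4 was 270.2 kb away and its canonical TSS 331 kb. On the annotation the summit fell in an intron of the long non-coding RNA SLC38A4-AS1 (plus strand) and 102 bp from the TSS of the non-coding gene ENSG00000257496 (minus strand). SLC38A2 was thus the nearest protein-coding gene on the linear map, which does not identify the gene that a distant site acts on. Which gene it acts on was not tested.

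The strongest peak was also the widest of the 50, at 586 bp. The list gave the same interval 3 times with different summits, and the other 2 summits had signal values of 36.3 and 42.1. The sequence shown for it holds a core 13 bp to the right of the summit and, 28 bp further on and on the opposite strand, the full TEAD motif. The AP-1 motif was not found within 100 bp of this summit.

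Other strong peaks stood around it. A peak with a signal value of 288 (chr12:46492619-46492934) lay 1.78 kb away and held the TEAD motif 12 bp to the left of its summit. The next strongest of the SLC38A2 window, with a signal value of 419 and rank 258 (chr12:46473620-46473984), lay 20.8 kb away and held the AP-1 motif 26 bp to the left of its summit, without the TEAD core. Closest to SLC38A2, at 12.4 kb upstream of its TSS, a peak with a signal value of 256.4 (chr12:46384975-46385279) held the core only. The peaks with the highest values at this locus thus differed in which motif they held.

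The stretch between the SLC38A2 and SLC38A4 genes (chr12:46372774-46764760), 392 kb long, held 20 peaks. That is 5.10 peaks per 100 kb, compared with 0.684 over the genome. All 20 summits lay inside SLC38A4-AS1 (chr12:46383433-46876784). That gene spans nearly all of the stretch, so nothing is read from this count. Of 440 stretches of 300 to 500 kb between neighbouring protein-coding genes, the median held 1 peak and the 90th percentile was 8. The 440 include this stretch. It was 1 of 3 that held 20 or more peaks (0.682%), and no other of the 440 held a peak as strong. The stretch was singled out for its very strong peak, so its place by strength follows from that choice. Nothing is read from its place among the 440. Merging peaks of the stretch that shared at least 1 bp left 16 regions.

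Of these 20 peaks, 13 were assigned to a member gene and 7 were in no member's window. Among the 7, a peak with a signal value of 442 (rank 212, chr12:46547877-46548299) lay 175 kb from the TSS of SLC38A2. Just past the limit of the window, at 150.9 kb, stood a peak with a signal value of 143. The 150 kb limit therefore cut through this group of peaks. On the other side of SLC38A2, the assigned peak farthest from a TSS was at 142 kb, with a signal value of 286. For the other 7 genes the first peak outside the window stood at 152 to 373 kb, with signal values from 16.6 to 94.3.

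**Figure D1:**
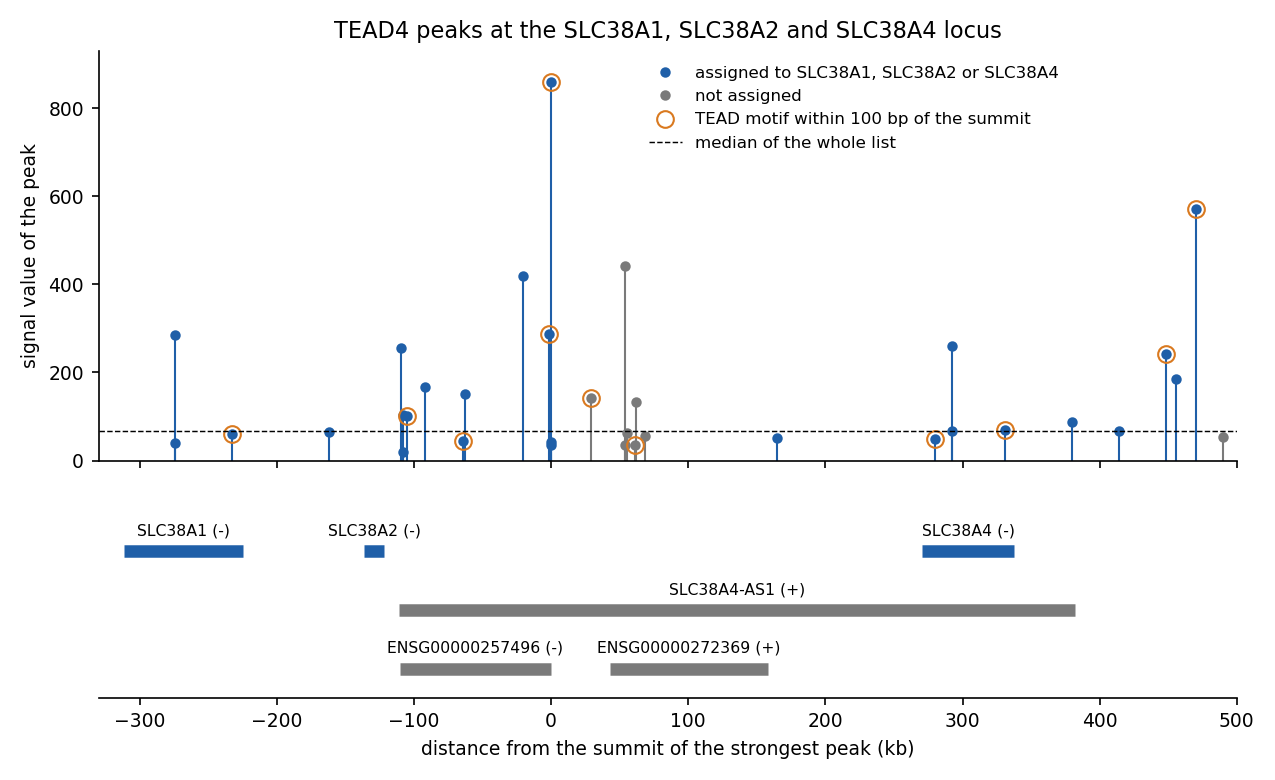
Signal value of each TEAD4 peak (vertical axis) against the distance of its summit from the strongest summit in kb (horizontal axis), with genes drawn as bars and their strand in brackets. The strongest peak (859.9) stands in the stretch between SLC38A2 and SLC38A4, which held 20 peaks, 7 of them not assigned (grey).

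SLC38A1 (chr12:46183063-46270017, minus strand) encodes SNAT1, a close relative of SNAT2 that also carries glutamine, and SLC38A4 (chr12:46764761-46832408, minus strand) encodes SNAT4, a system A transporter known from liver and placenta. SLC38A1 had 9 peaks, all of which also fell in the window of SLC38A2, so they are not separate evidence for either gene. By the nearest protein-coding TSS, 3 of these 9 went to SLC38A1. Those 3 lay in its introns and had signal values of 286, 40.7 and 59.6. The peak of 286 (rank 866, chr12:46219919-46220240) was 49.0 kb downstream of the canonical TSS and held neither the TEAD core nor the AP-1 motif within 100 bp of its summit. SLC38A1 had no peak closer to a TSS than 5939 bp.

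SLC38A4 had 10 peaks with signal values from 48.3 to 571 and a median of 78.4. Its strongest peak (chr12:46964496-46964903, rank 81) lay 139 kb upstream of the canonical TSS, and the nearest protein-coding gene of that summit was PCED1B. The sequence shown for it holds 2 cores on the same strand whose middles are 8 bp apart, both within 11 bp of the summit and the second of them part of a full motif. It stood at 132 kb from the nearest SLC38A4 TSS, and the first peak outside the window, at 152 kb, had a signal value of 52.7.

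Closer to SLC38A4, an intronic peak with a signal value of 69.1 (chr12:46825464-46825907) had its summit 299 bp from a TSS and 311 bp from the canonical TSS, with the TEAD motif 23 bp to the left. A stronger intronic peak, with a signal value of 261 (chr12:46786662-46787096), held none of the motifs. It lay 39.2 kb downstream of the canonical TSS and 17.5 kb from the nearest SLC38A4 TSS. Upstream, at 117 kb, a peak with a signal value of 242 held both the TEAD and the AP-1 motif. The SLC38A4 peak closest to a TSS was thus near the list median, and the stronger peaks of the gene lay farther from its TSSs.

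SLC1A5 (chr19:46774883-46788594, minus strand) encodes ASCT2, a sodium-dependent exchanger of neutral amino acids and a main route of glutamine uptake in many proliferating cells. It had 8 peaks, all upstream, with signal values from 41.9 to 100.01 and a median of 54.5. Of all protein-coding genes, 50.2% had a peak at least as strong in their window. The nearest peak lay 4.85 kb upstream (chr19:46793222-46793665), had a signal value of 58.2 and held the AP-1 motif. It was the only 1 of the 8 whose nearest protein-coding TSS was that of SLC1A5. Of the other 7, 6 lay in introns of ARHGAP35 and 1 was nearest to AP2S1, a gene for a clathrin adaptor subunit. The window count of 8 thus consists mostly of peaks inside another gene.

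SLC7A5 (chr16:87830023-87869507, minus strand) encodes LAT1, the light chain of a transporter of leucine and other large neutral amino acids. Of the 8 genes it had the strongest peak within 2.5 kb of a TSS. That peak (chr16:87870681-87871030, rank 712) had a signal value of 305 and lay 1323 bp upstream of the canonical TSS, outside any annotated gene. In the sequence shown for it, 3 cores stand at 42 and 4 bp to the left and 48 bp to the right of the summit, the first of them within a full motif. The other 3 peaks were downstream of the TSS and beyond the gene, 51.5 to 57.5 kb from the nearest SLC7A5 TSS. Their signal values were 194, 63.9 and 8.45, and their nearest protein-coding gene was KLHDC4. The peak of 194 held 2 cores 16 bp apart on opposite strands, the first of them part of a full motif.

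SLC3A2 (chr11:62856004-62888880, plus strand) encodes CD98 heavy chain (4F2hc), the partner that brings both LAT1 and the cystine transporter xCT to the plasma membrane. All 3 of its peaks lay within 2.5 kb of an annotated TSS, of which it has 21. Their signal values were 66.5, 35.0 and 135, so that only the last was above the list median. The first (chr11:62855853-62856296) had its summit 27 bp from the nearest TSS and 24.8 kb upstream of the canonical TSS, and overlapped a RefSeq promoter window of the gene. The second (chr11:62880179-62880622) was 495 bp from the canonical TSS and 59 bp from another. Both summits were annotated as UTR, and neither held the TEAD core or the AP-1 motif within 100 bp. The strongest (chr11:62890069-62890276) lay past the 3′ end of the gene, 9.26 kb downstream of the canonical TSS, and held the TEAD motif 15 bp to the left of its summit.

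SLC7A11 (chr4:138164097-138242349, minus strand) encodes xCT, which exchanges cystine for glutamate and so feeds glutathione synthesis. Its 4 peaks had signal values of 141, 104, 59.7 and 9.65 and all lay within 50 kb of a TSS. The strongest (chr4:138251987-138252214) was 9.74 kb upstream and held none of the motifs. The peak of 104 (chr4:138235688-138235842) lay in an intron 6.62 kb downstream of the canonical TSS, with the TEAD motif 13 bp and the AP-1 motif 95 bp to the right of its summit. The peak of 59.7 lay 934 bp from a minor TSS inside the gene but 20.0 kb from the canonical one. SLC7A11 thus had a peak within 2.5 kb only through its minor TSS.

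SLC7A1 (chr13:29509414-29595688, minus strand) encodes CAT1, the carrier of arginine and lysine. It had 3 peaks in introns, with signal values of 34.0, 7.66 and 46.8, all within 2.5 kb of a TSS and all below the list median. The first and second of these were 1297 and 1041 bp from the canonical TSS. Upstream peaks were stronger, with signal values of 157 at 24.6 kb (chr13:29620113-29620365, TEAD motif 18 bp to the left of the summit) and 199 at 81.0 kb (chr13:29676576-29676874, core only). At SLC7A1 the peaks near a TSS were therefore weaker than those upstream.

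Ordered by their strongest peak, the genes were SLC38A2 (859.9), SLC38A4 (571), SLC7A5 (305), SLC38A1 (286), SLC7A1 (199), SLC7A11 (141), SLC3A2 (135) and SLC1A5 (100.01). Whether neighbours in this order differ beyond the spread between replicates cannot be told from a list without values per replicate. The share of protein-coding genes with a peak at least as strong was 0.0200% for SLC38A2, 1.33% for SLC38A4, 9.76% for SLC7A5 and 11.3% for SLC38A1. It was 22.1% for SLC7A1, 35.5% for SLC7A11 and 37.3% for SLC3A2. The upper end of the order was thus held by the SLC38 genes and SLC7A5, and the lower end was close to the middle of all genes.

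**Figure D2:**
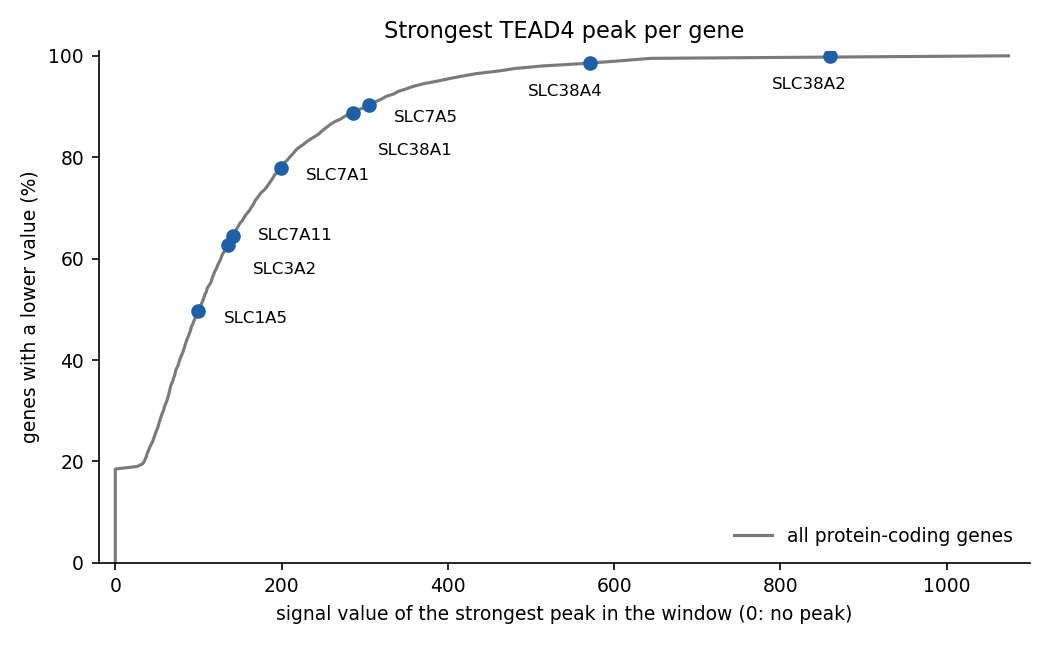
Percent of protein-coding genes whose strongest peak has a lower signal value (vertical axis) against that signal value (horizontal axis, 0 where the window holds no peak), with the 8 transporter genes marked. SLC38A2 at 859.9 and SLC38A4 at 571 stand at the top, and SLC1A5 at 100.01 is near the middle.

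Within 2.5 kb of a TSS, 5 of the 8 genes had a peak (SLC38A4, SLC7A1, SLC7A5, SLC7A11 and SLC3A2), compared with 16.7% of all protein-coding genes. This share of 62.5% has a Wilson 95% interval of 30.6 to 86.3%, which covers counting error over genes only. Within 50 kb all 8 had a peak, compared with 55.3% of all genes. In the full window all 8 had a peak, compared with 81.1% of all genes, so having a peak at that distance was the usual case. Since the members were chosen with results on these peaks known, nothing is read from these differences.

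Over the 50 peaks, the signal value had a median of 67.5 (95% interval from order statistics 58.2 to 104), beside 68.1 for the list, and 24 peaks (48.0%) were above the list median. The middle of the distribution was therefore close to that of the whole list when every listed summit counted as a peak. With overlapping peaks merged, the median of the assigned regions was 93.8. It was also 93.8 with only peaks of the highest IDR score. No list median was at hand for these 2 settings. At its upper end, 6 peaks (12%) were among the 1000 strongest, which make up 4.74% of the list, and 5 of these 6 were at the SLC38 genes. The SLC38 genes held 26 of the 50 peaks, with a median of 94.1, and the other 5 genes held 24, with a median of 61.8. Of the 10 strongest peaks, 8 were at the SLC38 genes, and the other 2 were those of SLC7A5 (305) and SLC7A1 (199).

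The 3 lowest signal values, 7.66 at SLC7A1, 8.45 at SLC7A5 and 9.65 at SLC7A11, belonged to the only peaks of the 50 with a q-value above 0.05, a value found for 3.19% of all peaks. Each overlapped a stronger peak of the same gene. Merging overlapping peaks turned the 50 into 42 regions. In 42 of the 50 peaks the IDR score, which measures how well the rank of a peak repeats between the 2 replicates kept for their concordance, was at its highest value of 1000 (84%, compared with 76.1% of all peaks), and the lowest was 861. Many intervals had the same width, 444 bp in 27 peaks, and none of these had a signal value above 103.4.

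Of the 50 summits, 15 lay in the body of a member gene and 35 outside. Within 2.5 kb of a TSS of a member gene there were 9, within 50 kb 28 and beyond 100 kb 13. Counting the TSSs of all annotated genes, non-coding ones included, 21 summits (42%) lay within 2.5 kb, compared with 27.0% of all peaks. Introns of protein-coding genes held 19 summits, UTRs 2 and coding sequence 0. Another 12 were intergenic, and SLC38A4-AS1 spanned 18. The nearest protein-coding TSS was that of a member for 39 peaks and of another gene for 11. Apart from the 27.0%, no share over all peaks was at hand for these places. The counts only describe where the 50 summits lay.

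The TEAD motif ACATTCC, searched on both strands up to 100 bp from each summit, was present at 16 of the 50 peaks (32%, Wilson 95% interval 20.8 to 45.8%), compared with 23.0% of all peaks. The AP-1 motif, which is bound by FOS and JUN proteins, was present at 7 of 50 (14.0%, 6.95 to 26.2%), compared with 25.4% of all peaks. The interval of the TEAD motif includes the share over all peaks, and that of AP-1 reaches just past it. These intervals are not a test, since they treat as separate 15 peaks that lie in 7 regions of overlapping peaks. With overlapping peaks merged, 38.1% of the regions held the TEAD motif, and no list share was at hand for that setting. Both motifs were present at 2 peaks (4%, compared with 4.49% of all peaks) and neither at 29 (58.0%, compared with 56.1%). In equally wide stretches centred 2000 bp to the left and right of the summits, the TEAD motif was found in 4 of 100 and the AP-1 motif in 2 of 100.

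The core CATTCC, which each full motif contains, was present at 22 of 50 peaks (44%, compared with 46.8%). At least 2 cores were present at 8 peaks (16.0%, 8.34 to 28.5%), compared with 8.84% of all peaks. The strongest peaks of SLC38A2, SLC38A4, SLC7A5 and SLC3A2 were among these 8. Spacing and strand differed between them, with 28 bp on opposite strands at SLC38A2, 8 bp on the same strand at SLC38A4, 38 bp on the same strand and 52 bp on opposite strands at SLC7A5, and 95 bp on opposite strands at SLC3A2. These 4 peaks therefore shared several cores but no arrangement of them.

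Peaks with the full TEAD motif had a median signal value of 119.8 (44.7 to 859.9, 16 peaks), and peaks without it 64.7 (7.66 to 419, 34 peaks). The groups overlapped, and the 2 values above 419 belonged to peaks with the motif. Over the whole list the medians were 82.2 and 64.6. Among the 10 strongest peaks, 5 held the full motif, 7 the core and 2 the AP-1 motif. In 10 of the 16 peaks the motif nearest to the summit was within 25 bp of it. No matching shares were at hand for the strongest peaks of the whole list or for this distance over all peaks. These counts are therefore not shown to be particular to the 8 genes.

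RefSeq promoter windows (GRCh38.p14, 250 bp before to 50 bp after the start) were at hand for 7 of the 8 genes, in all 12 windows. The TEAD motif was in none of the 12, compared with 3.46% of 35116 promoter windows. The AP-1 motif was in 2, 1 each of SLC38A1 and SLC3A2 (4.95% of all). The C/EBP-ATF element core TTGCATCA, known from genes of the amino acid response, was in 1 window, of SLC1A5 (0.866% of all). The E-box CACGTG was in 2, 1 each of SLC1A5 and SLC7A5 (7.26% of all). The only window that overlapped a peak was 1 of SLC3A2, whose peak had a signal value of 66.5. These matches describe the letters in the windows and not binding.

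Other genes of amino acid uptake and use were counted in the same way, to any annotated TSS, which need not be the canonical one. Of 42 other amino acid transporter genes, 6 had a peak within 2.5 kb of a TSS (14.3%, 6.72 to 27.8%), 17 within 50 kb (40.5%) and 32 in the window (76.2%), beside 16.7%, 55.3% and 81.1% of all genes. The 6 were SLC6A6 (signal value 153), a taurine transporter, SLC1A2 (96.0), a glutamate transporter, SLC1A7 (57.0), SLC38A6 (55.0), SLC7A6 (53.8) and SLC38A9 (38.7), a lysosomal arginine sensor of mTORC1. SLC7A6, which encodes another light chain that pairs with CD98 heavy chain, also had a peak of 804 in its window.

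Of 26 genes for enzymes of glutamine, serine, proline and glutathione metabolism, 8 had a peak within 2.5 kb (30.8%, 16.5 to 49.99%), 12 within 50 kb (46.2%) and 20 in the window (76.9%). Among them, the serine synthesis genes PHGDH (69.1), PSPH (47.1) and PSAT1 (30.3) each had a peak within 95 bp of a TSS. For PSPH and PSAT1 these peaks were 130 and 1 bp from the canonical TSS, and for PHGDH 63618 bp. Values near a TSS were also found for BCAT1 (65.8), GCLC (58.6), GFPT2 (50.9) and GLUD1 (39.5). Of the values given for these 7 genes, that of PHGDH was above the list median.

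Of 29 genes of the amino acid response and of mTORC1 sensing, 6 had a peak within 2.5 kb (20.7%, 9.85 to 38.4%), 16 within 50 kb (55.2%) and 25 in the window (86.2%). They were STC2 (264), TSC1 (194), which encodes a subunit of the complex that restrains mTORC1, CEBPB (119), DDIT3 (94.0), ATF3 (67.4) and NFE2L2 (61.1). The intervals of all 3 lists include the share of all genes at 2.5 kb.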

How the data were processed

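TEAD4 ChIP-seq of DMSO-treated LX-2 cells was made from 3 replicates and 2 input samples. The authors mapped reads to hg38 with Chromap, ran the ENCODE IDR pipeline on all 3 replicates, dropped replicate 2 for lack of concordance, ran it again on replicates 1 and 3, and deposited 1 list of 21113 peaks with 10 columns. The peak caller and its use of the input for TEAD4 are not given in the sources used here.

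The authors' values were a scaled IDR score, a signal value from the peak caller and a capped −log10 q-value for each peak, as far as the column order and the ranges of the deposited values show. No column held values of a single sample, so depth is unknown and no test was run.

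Summits were assigned to TSSs and genes of GENCODE release 44, and motifs were counted within 100 bp of summits on both strands, with Python 3.11.15, pandas 2.3.3, numpy 2.4.6, scipy 1.17.1 and pysam 0.24.0. Intervals of shares are Wilson 95% intervals over peaks or genes. All 8 genes were described. Named peaks were the nearest and strongest of each gene, the 10 strongest, those in the stretch between SLC38A2 and SLC38A4 and those just inside or outside the window, with the remaining assigned peaks of short windows added so that every member was accounted for. Genes of other lists were named for a peak within 2.5 kb of a TSS, and 1 of the genes counted is not reported here by name. The members and lists were chosen with earlier results of these data known. With 1 condition, no likeness of pattern between genes was computed. In simulated data, assignments equalled a direct search for 300 of 300 genes and 200 of 200 planted motifs were found. Promoter sequences came from RefSeq (GRCh38.p14).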

Additional observations from a re-analysis of the deposited data

How the results depend on the processing

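The rank of the peak between SLC38A2 and SLC38A4 could not fall when weaker peaks were dropped or overlapping peaks merged, so its value of 3 in each setting says nothing about its stability. Of 46 recomputed values, 34 moved by less than the limit set for them and 12 by more. Some of the 34 could not move, such as these ranks and the 8 genes when 50 kb was widened to 100 kb. The limit was also wide, as a median going from 67.5 to 93.8 stayed within it. The tally therefore does not measure stability. With only peaks above the median signal value, 24 peaks were assigned, 3 of the 8 genes had a peak within 2.5 kb of a TSS, the median signal value was 176 and 45.8% of peaks held the TEAD motif. The choice of peaks by signal value sets the higher median by construction. The TEAD motif share of all peaks above the median was not at hand. Over the whole list, peaks with the motif had a median signal value of 82.2 and peaks without it 64.6. With a distance of 50 kb to a TSS, 28 peaks were assigned, and with 1 kb in place of 2.5 kb, 3 genes had a peak. Shares of all protein-coding genes with a peak fell with 1 TSS per gene to 11.0% within 2.5 kb, 49.2% within 50 kb and 79.2% in the window. With only peaks above the median signal value they were 8.56%, 37.8% and 64.7%. With 1 TSS per gene, 4 of the 8 genes had a peak within 2.5 kb, and merging overlapping peaks left 42. No paired analysis was possible because each peak has 1 value for replicates 1 and 3 combined, which also prevented leaving out either replicate. Depth per sample is unknown, so a gene without a peak at a distance cannot be told apart from one whose site was too weak for the list.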
